A study of Homo sapiens with 2 samples.

Results

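The kinesin motor genes were taken from the deposited count table by name: every row called KIF with a number and at most 1 further letter, KIFC with a digit, or KLC with a digit. Of 47 such rows among the 56303 genes of the table, 40 had at least 20 reads over both libraries and were kept, as were 17915 genes in all. Both libraries were made from a lysate of HUH7, a line grown from a human hepatocellular carcinoma: the ZMAT2 IP holds RNA recovered by anti-ZMAT2 antibody from 80% of the lysate, and Input holds the RNA of an untouched 10%. The labels give no treatment or genetic change for either. ZMAT2 is a zinc-finger protein of the spliceosome, and the series asks whether it acts on liver cancer through splicing. An IgG precipitation is described for the study but was not analysed here, so nonspecific recovery was not measured beside these values.

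Kinesins are motor proteins that use ATP to walk along microtubules or to take their ends apart. Mitotic kinesins build the spindle, move chromosomes and help the cell divide, and their genes are switched on as dividing cells approach mitosis. Transport kinesins carry vesicles, organelles and protein complexes in all phases of the cell cycle, and kinesin light chains couple the conventional heavy chains to cargo. The kept genes were sorted by known role into 13 mitotic kinesins, 17 transport kinesins (13 heavy chain and 4 light chain genes) and 9 others, which act in cilia, centrioles, signalling or microtubule growth or are little studied. KIF28P matched the name rule but is annotated as a pseudogene and was left out of the 3 classes.

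Reads in genes totalled 25047635 for the IP and 23485789 for Input. All 10 hepatocyte and hepatoma markers checked were above the read minimum, their levels summing to 15368 CPM in the IP against 21653 CPM for Input. Kept markers of other cells were 2 of 5 immune, 2 of 4 fibroblast, 1 of 4 endothelial and 4 of 5 neuronal ones, and CD3E, COL1A1, DCN, KDR, CDH5 and RBFOX3 were at 0 in both libraries. Of these lists the immune one summed highest, at 256 CPM in the IP against 370 CPM for Input, nearly all from LYZ. The mRNA of the antibody's target, ZMAT2, gave 36553 IP reads against 5187 Input reads, a 7.11-fold difference, with 8.39% of its exon bases shared with other genes. Each value below is the log2 ratio of the IP over Input after TMM scaling, which sets the bulk of genes near 0, with the 95% interval that counting error allows. With 1 library per group there was no replicate and no test, and every difference is one between these 2 libraries.

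Kinesin promoters are shown first because they describe the mitotic and transport genes by sequence, which neither the naming rule nor the counts used. Textbook promoters of mitotic genes carry CCAAT boxes, bound by the factor NF-Y, and a cell cycle homology region (CHR) near the start of transcription, read by the DREAM and MuvB complexes. The lines give 120 bases ending just before the RefSeq start of the gene (GRCh38.p14), read 5′ to 3′ in the direction of the gene, with capitals for CCAAT in either orientation (CCAAT or ATTGG) and for CHR-type letters (TTTGAA, its reverse complement TTCAAA, or the palindrome TTCGAA). They show 4 of the 5 mitotic kinesins in which both motifs were found, and the transport kinesins KIF1C, called higher in the IP below, and KIF5B, the kinesin with the most reads.
KIF4A, chrX:70289984-70290103, plus strand: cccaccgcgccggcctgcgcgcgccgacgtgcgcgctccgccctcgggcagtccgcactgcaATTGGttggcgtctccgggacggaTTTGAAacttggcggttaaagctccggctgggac
KIF11, chr10:92593010-92593129, plus strand: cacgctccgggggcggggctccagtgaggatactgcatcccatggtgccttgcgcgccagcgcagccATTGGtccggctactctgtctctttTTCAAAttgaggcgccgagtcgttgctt
KIF22, chr16:29790631-29790750, plus strand: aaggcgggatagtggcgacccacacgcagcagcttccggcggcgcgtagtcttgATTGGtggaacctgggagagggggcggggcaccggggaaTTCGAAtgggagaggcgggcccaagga
KIF18A, chr11:28108157-28108276, minus strand: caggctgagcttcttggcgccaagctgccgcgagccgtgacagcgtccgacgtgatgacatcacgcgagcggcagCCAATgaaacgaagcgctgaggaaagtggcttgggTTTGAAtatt
KIF1C, chr17:4997830-4997949, plus strand: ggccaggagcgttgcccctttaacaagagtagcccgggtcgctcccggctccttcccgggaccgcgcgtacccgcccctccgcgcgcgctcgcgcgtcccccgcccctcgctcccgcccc
KIF5B, chr10:32056426-32056545, minus strand: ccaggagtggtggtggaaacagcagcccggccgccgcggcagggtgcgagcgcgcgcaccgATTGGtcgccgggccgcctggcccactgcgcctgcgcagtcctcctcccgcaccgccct

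In these 4 mitotic promoters the CCAAT letters lay upstream of the CHR-type letters. They began 58 and 34 bases before the start in KIF4A, 53 and 28 in KIF11, 66 and 27 in KIF22, and 45 and 10 in KIF18A. KIF5B held CCAAT letters 59 bases before its start and no CHR-type letters, and KIF1C held neither in this window. The RefSeq starts lay between 2 and 156 bases from the gene starts of the deposited table for these 6 genes. The promoter table held 30 of the 40 kept kinesins. CCAAT letters were present in the 120 bases of 10 of 13 mitotic kinesins (76.9%), against 2 of 11 transport kinesins (18.2%) and 3 of 6 other kinesins. CHR-type letters were present in 6 of 13 mitotic kinesins (46.2%) and in 0 of 11 transport and 0 of 6 other kinesins. Over all 27305 promoters in the table, 21.2% held CCAAT letters and 6.13% CHR-type letters in the same window, and 1.37% held both. Over the 10640 promoters of genes kept here these shares were 24.3%, 3.72% and 1.12%. Among mitotic kinesins 5 of 13 held both. KIF2A and KIF2C were the mitotic members with neither. Over 250 bases, CCAAT letters were present in 10 of 13 mitotic and 3 of 11 transport kinesins. For CHR-type letters these counts were 6 of 13 and 1 of 11. A match is a run of letters and not a measured site.

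Over all 40 kinesins the median log2 ratio was 0.29, against 0.01 for all genes kept, and 28 of the 40 lay above 0 (70.0%, against 50.3% of all genes). Calls of higher or lower required a difference of at least 2-fold and an interval that excluded 0. By this rule 4 kinesins were called higher (10.0%, against 7.41% of all genes kept) and 0 were called lower (against 6.96%). With intervals on read pairs the same 4 were called, against 6.34% of all genes higher and 5.42% lower. At 1.5-fold, 12 of 40 were called higher (30.0%, against 17.8% of all genes) and 0 lower (against 16.0%). Of the 27 kinesins with at least 1000 reads, 2 were called higher at 2-fold and 0 lower, against 4.56% and 2.71% of all genes with that many reads. The interval lay wholly above 0 for 23 of 40 kinesins (against 33.3% of all genes) and wholly below 0 for 11 (against 32.5%). On read pairs KIF26B alone of these came to include 0. Among those with at least 1000 reads it lay above 0 for 18 and below 0 for 9, against 42.0% and 43.2% of all genes at that depth. The share called higher at 2-fold was near that of genes at large, and most kinesins were not called in either direction. All 40 ratios lay between -0.56 and 2.07.

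**Figure D1:**
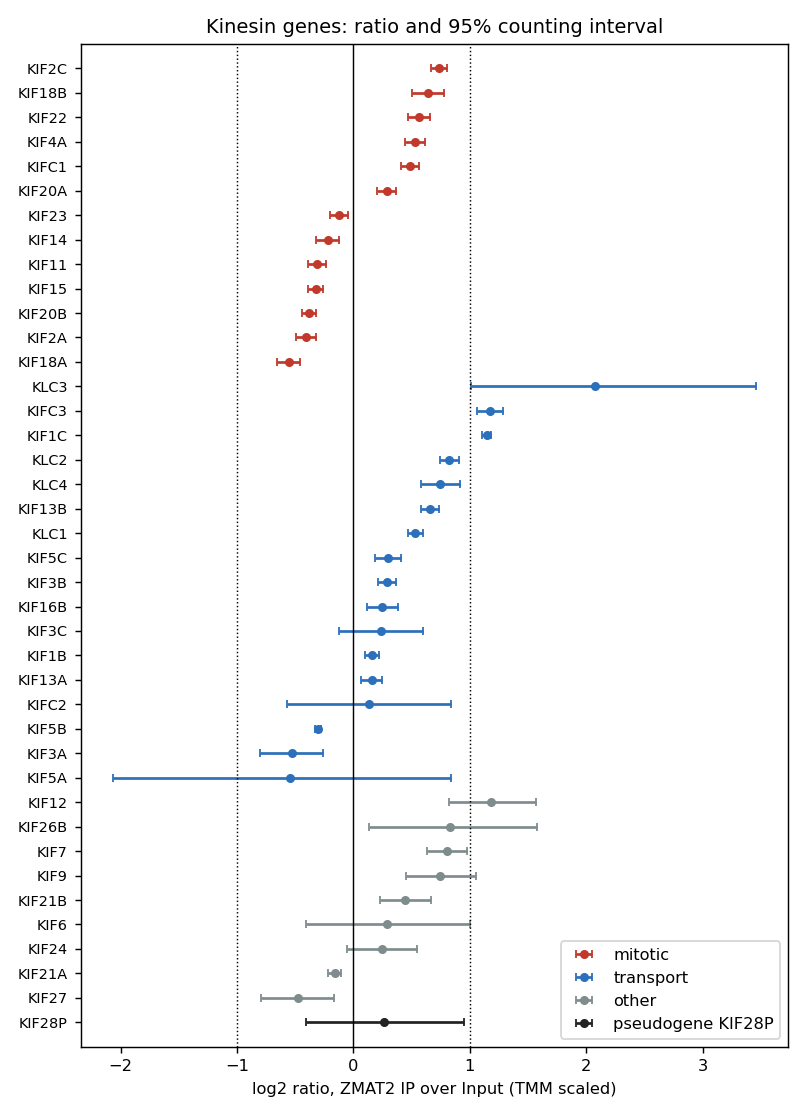
Log2 ratio of the ZMAT2 IP over Input (x axis) for the 40 kinesin genes kept, 1 row per gene, in 3 role classes and the pseudogene KIF28P. Points are ratios, bars are 95% counting intervals and dotted lines mark 2-fold. The mitotic genes fall into 6 above 0 and 7 below, while 14 of 17 transport genes lie above 0.

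Mitotic kinesins had a median log2 ratio of -0.13 and transport kinesins one of 0.29, a difference of -0.41. The ranges overlapped, from -0.56 to 0.74 in the mitotic class and from -0.54 to 2.07 in the transport class. Both transport ends rest on few reads, KIF5A with 20 and KLC3 with 43. Transport genes with at least 1000 reads ranged from -0.30 to 1.17. None of the 13 mitotic genes was called at 2-fold, while 3 of the 17 transport genes were called higher (17.6%), beside 7.41% of all genes kept and 4.56% of those with at least 1000 reads. At that background few calls are due in classes of this size, and nothing is read from the 2 counts. All 13 mitotic genes had at least 1000 reads. Among the 12 transport genes with that depth the median was 0.41 and 11 lay above 0 (91.7%). Among the mitotic genes 6 of 13 did (46.2%), and among all genes with that depth 48.6%. The mitotic median is the value of KIF23, at the edge of the gap between members above and below 0. Single genes therefore move the median. With KIF2A, which also has roles outside mitosis, placed in the other class, it was 0.08 and the difference was -0.21. The difference between the classes was not tested, since genes of 2 libraries are not replicates.

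The 6 mitotic kinesins above 0 were KIF2C, KIF18B, KIF22, KIF4A, KIFC1 and KIF20A, with ratios of 0.28 to 0.74. KIF2C, which takes microtubules apart at centromeres, gave 4527 IP reads against 2742 Input reads, for a log2 ratio of 0.74 (0.67 to 0.80). KIF18B, which acts at the ends of astral microtubules, gave 1125 IP reads against 729 Input reads, for a ratio of 0.64 (0.50 to 0.78). KIF22, a motor that rides on chromosomes and pushes their arms outward, gave 2210 IP reads against 1507 Input reads, for a ratio of 0.56 (0.47 to 0.66). Other genes overlap 13.0% of its exon bases. All 3 intervals stayed below 2-fold, and 14.7% of all genes kept had a higher ratio than KIF2C, the highest of the class. KIF4A, which bundles midzone microtubules with PRC1, stood at 0.53 (0.44 to 0.61). KIFC1, a minus-end motor that draws spindle poles together and shares 12.7% of its exon bases, gave 3341 IP reads against 2404 Input reads, for a ratio of 0.49 (0.41 to 0.56). KIF20A, which brings the chromosomal passenger complex to the midzone, stood lowest of the 6 at 0.28 (0.20 to 0.36), with 5.05% of exon bases shared.

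The 7 mitotic kinesins below 0 had ratios of -0.56 to -0.13. KIF18A, which damps the swings of chromosomes at the metaphase plate, was the lowest, with 1383 IP reads against 2050 Input reads and a log2 ratio of -0.56 (-0.65 to -0.46), or 1.47-fold lower. KIF2A, which takes microtubules apart at spindle poles and shares 8.97% of its exon bases, gave 1978 IP reads against 2648 Input reads, for a ratio of -0.41 (-0.49 to -0.32). KIF20B, a cytokinesis motor, gave 3718 IP reads against 4880 Input reads, the most of the class, for a value of -0.38 (-0.44 to -0.32). These values were lower in the IP beyond counting error and were all within 2-fold. KIF15 and KIF11, which both hold spindle poles apart, were nearly level with each other at -0.32 (-0.39 to -0.26) and -0.32 (-0.39 to -0.24). KIF14, which works with citron kinase in cytokinesis, stood at -0.22 (-0.32 to -0.12). KIF23, the motor subunit of centralspindlin, gave 2619 IP reads against 2884 Input reads and was nearest to 0 at -0.13 (-0.20 to -0.05).

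The 2 sets of mitotic genes also differed in size on the chromosome. Gene span, the distance from the first to the last exon base, had a median of 20696 bases in the 6 genes above 0 and 73330 bases in the 7 below. Of the genes above 0, 5 spanned under 35 kb, with KIF4A the exception at 130743 bases. Of those below 0, KIF23 alone did, at 34182 bases. Over the 13 mitotic genes the rank correlation of ratio and span was -0.63 (Pearson -0.64 with log2 span), over the 17 transport genes -0.13, and over all 7150 genes with at least 1000 reads -0.19. With merged exon length in place of span, the rank correlation was -0.62 over the mitotic genes, 0.056 over the transport genes and -0.074 over all genes with at least 1000 reads. The split at 0 was taken from the ratios themselves, these are descriptions across genes that share the same 2 libraries, and the part of gene size in the ratios was not tested.

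**Figure D2:**
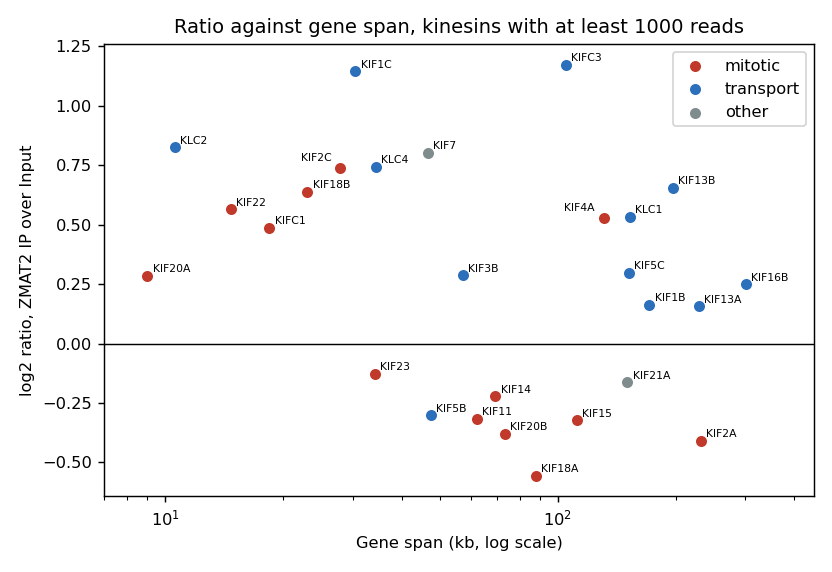
Log2 ratio of the ZMAT2 IP over Input (y axis) against gene span in kb on a log scale (x axis) for the 27 kinesin genes with at least 1000 reads, coloured by role. Mitotic genes above 0 lie mostly at short spans, with KIF4A at 130743 bases the exception, while transport genes lie above 0 over the whole range of spans, except KIF5B.

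Among transport kinesins, KIF1C, KIFC3 and KLC3 were called higher in the IP. KIF1C, a motor for integrin-bearing and secretory vesicles, lies at 4997948 to 5028401 on chromosome 17 (GRCh38). It gave 20390 IP reads against 9307 Input reads, for a log2 ratio of 1.14 (1.11 to 1.18) or 2.21-fold. KIFC3, a minus-end motor known from adherens junctions, lies at 57758217 to 57863053 on chromosome 16 and shares 5.60% of its exon bases. It gave 2012 IP reads against 900 Input reads, for a log2 ratio of 1.17 (1.06 to 1.29) or 2.25-fold. KLC3, a light chain best known from sperm cells, lies at 45333434 to 45351520 on chromosome 19. It gave 35 IP reads against 8 Input reads, for a log2 ratio of 2.07 (1.01 to 3.46) or 4.21-fold. KIF1C and KIFC3 are thus measured closely by counting, while KLC3 rests on 43 reads and shares 14.6% of its exon bases, its ratio ranging from 0.53 to 4.17 when read pairs are counted as 1. Among all genes kept, 5.64% had a higher ratio than KIF1C and 5.27% a higher ratio than KIFC3. With the 25 kinesins that share under 5% of their exon bases, 2 calls were left, KIF1C and KIF12.

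All 4 light chain genes lay above 0, against 50.3% of all genes kept, with a median of 0.78. Only 1 of them was called higher, against 7.41% of all genes kept, and nothing is read from so small a count. That gene was KLC3, which rests on 43 reads. The 3 light chains with at least 1000 reads had a median of 0.74, and none of them was called. KLC2 gave 3453 IP reads against 1966 Input reads, for a log2 ratio of 0.83 (0.74 to 0.91), with 9.58% of exon bases shared. KLC4 gave 782 IP reads against 471 Input reads, for a ratio of 0.74 (0.58 to 0.91), with 12.8% shared. KLC1, the light chain with the most reads, gave 4309 IP reads against 3006 Input reads, for a ratio of 0.53 (0.46 to 0.60). Of its exon bases 40.6% belong to other genes too, chiefly XRCC3 and a gene listed as RP11-73M18.2. How reads over these bases were counted is not known, so reads of those genes may be among those given for KLC1. Each of the 4 shares over 5% of its exon bases with other genes. Over the 17 transport genes the rank correlation of the ratio with the shared percentage was 0.50, against 0.08 over all genes kept, and the part of shared bases in the ratios was not tested.

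Of the heavy chains that these light chains join, KIF5B stood below 0 and KIF5C above it. KIF5B, the widely expressed heavy chain of conventional kinesin, was the kinesin with the most reads, 22056 IP reads against 27436 Input reads. Its log2 ratio was -0.30 (-0.33 to -0.28), or 1.23-fold lower. KIF5C, one of the forms known from neurons, gave 1496 IP reads against 1229 Input reads, for a ratio of 0.30 (0.19 to 0.41). KIF5A, the other neuronal form, gave 8 IP reads against 12 Input reads, exactly the minimum, and its interval of -2.07 to 0.84 allows either direction. KIF1A, also known from neurons, and KIF17 had 0 reads in both libraries, where a count of 0 allows up to 3 reads.

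Heterotrimeric kinesin-2, which carries cargo into cilia, gave unlike values for its motor subunits. KIF3B gave 3116 IP reads against 2578 Input reads, for a log2 ratio of 0.29 (0.21 to 0.36). KIF3A, its usual partner, gave 188 IP reads against 274 Input reads, for a ratio of -0.53 (-0.81 to -0.26). KIF3C gave 140 IP reads against 120 Input reads, for a ratio of 0.23 (-0.13 to 0.60). KIFAP3, the non-motor subunit, which the name rule leaves out, stood at -0.07 (-0.39 to 0.24), so its interval and that of KIF3C included 0.

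The remaining transport motors lay above 0. KIF13B, an endosome and vesicle motor with 7.78% of exon bases shared, gave 3388 IP reads against 2171 Input reads, for a ratio of 0.65 (0.58 to 0.73). Its relative KIF13A stood at 0.16 (0.06 to 0.25), the early endosome motor KIF16B at 0.25 (0.12 to 0.38) and KIF1B, a motor for mitochondria and synaptic vesicle precursors, at 0.16 (0.10 to 0.22). KIFC2 gave 38 IP reads against 35 Input reads, its interval of -0.57 to 0.84 allows either direction, and 17.8% of its exon bases are shared.

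Among the other kinesins, KIF12 was the 1 member called. KIF12, a gene in which variants cause cholestatic liver disease, lies at 114086126 to 114099227 on chromosome 9 and gave 201 IP reads against 89 Input reads. Its log2 ratio was 1.18 (0.82 to 1.56), or 2.27-fold. KIF7, which sits at the tip of the primary cilium and tunes Hedgehog signalling, gave 754 IP reads against 436 Input reads, for a ratio of 0.80 (0.63 to 0.98), with 11.8% of exon bases shared. KIF9, a motor of cilia and sperm tails with 17.9% shared, stood at 0.75 (0.45 to 1.05). KIF26B gave 48 IP reads against 27 Input reads and an interval of 0.13 to 1.58, which on read pairs widens to -0.18 to 1.92 and includes 0. KIF21A, which slows microtubule growth, was the deepest of this class with 5098 IP reads against 5756 Input reads and stood at -0.16 (-0.22 to -0.11). KIF21B, its relative, was at 0.45 (0.23 to 0.66), and KIF24, which acts at centrioles, at 0.24 (-0.06 to 0.54). KIF6, with 40 IP reads against 33 Input reads, stood at 0.29 with an interval that included 0. KIF27, with 13.1% of exon bases shared, was the lowest at -0.48 (-0.79 to -0.16). KIF28P, with 27.3% shared, gave 43 IP reads against 36 Input reads, for a ratio of 0.27 (-0.40 to 0.95).

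The 7 rows under the read minimum were KIF4B and KIF25, with 4 IP reads against 0 Input reads each, and KIF1A, KIF2B, KIF17, KIF19 and KIF26A, with 0 reads. KIF4B is an intronless copy of KIF4A, and reads of near-identical copies may be split between them. Just inside the minimum were KIF5A with 20 reads in all and KLC3 with 43.

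To compare levels between genes, reads were divided by merged exon length in kb and by the TMM-scaled library (RPKM). The highest level was that of KIF5B in both libraries, 155 RPKM in the IP and 192 RPKM in Input, followed by KIF1C with 98.4 RPKM in the IP and 44.5 RPKM in Input. Mitotic kinesins lay in a narrow band, from 6.43 to 34.6 in Input with a median of 22.8 RPKM. Transport kinesins spanned 0.079 to 192 RPKM in Input with a median of 5.47 RPKM, and the other class had a median of 1.16 RPKM. Summed over its members, the mitotic class held 33984 IP reads against 33450 Input reads, a log2 ratio of 0.04 after scaling. The transport class summed to 69157 IP reads against 56452 Input reads and a log2 ratio of 0.31. That sum depends strongly on single genes. KIF1C alone gave 20390 of its IP reads and 9307 of its Input reads, and KIF5B gave 22056 and 27436. KIF1C and KIF5B, the deepest transport genes, lay on opposite sides of 0. The sum is therefore not read as a trait of the class.

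**Figure D3:**
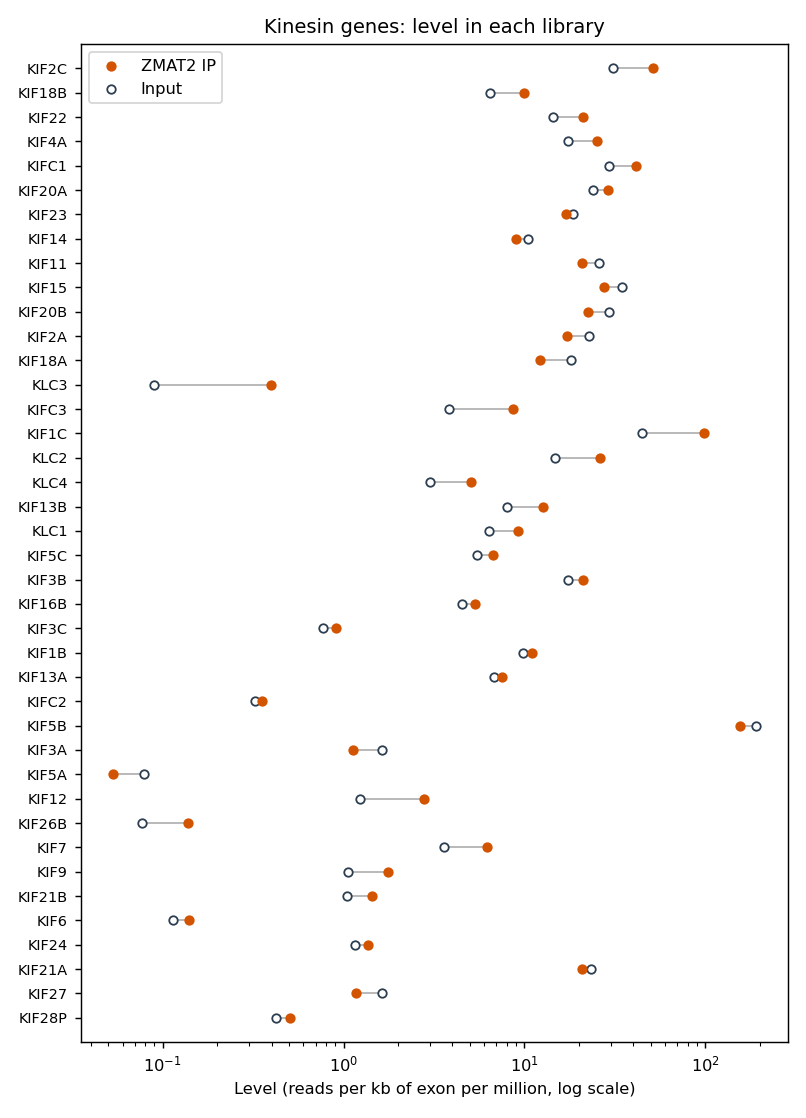
Level of each kinesin gene in reads per kb of merged exon and scaled library (RPKM, x axis, log scale) in the ZMAT2 IP (filled) and Input (open), 1 row per gene in the order of the plot of ratios. KIF5B and KIF1C have the highest levels, and the distance between the points of a row is largest for KLC3.

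Comparing members of the same family sets genes of like function side by side, and such a difference of log2 ratios does not depend on how the libraries are scaled. A family was taken as the KIF genes of the same number, or the KLC genes, and the KIFC genes were not paired. The 9 such families with more than 1 kept member gave 18 pairs, and in 14 the 95% counting interval of the difference excluded 0. Of the 9 pairs in which both genes had at least 1000 reads, 8 did. No share over pairs of other genes was computed. Single intervals already lay wholly above 0 for 42.0% and wholly below 0 for 43.2% of all genes at that depth. Intervals of deep genes are narrow, so nothing is read from these counts about kinesin families. In each of the 3 mitotic families with both members kept, 1 member lay above 0 and the other below. KIF18B exceeded KIF18A by 1.19 (1.02 to 1.36), KIF2C exceeded KIF2A by 1.14 (1.03 to 1.25), and KIF20B minus KIF20A was -0.66 (-0.77 to -0.56). Among transport motors, KIF1C exceeded KIF1B by 0.98 (0.91 to 1.05), KIF5C exceeded KIF5B by 0.60 (0.49 to 0.71) and KIF13B exceeded KIF13A by 0.50 (0.38 to 0.62). KIF3B minus KIF3A was 0.82 (0.53 to 1.10). The light chains KLC4 and KLC2 did not differ beyond counting error (-0.08, -0.27 to 0.11). The largest of the 9 deep pairs, KIF18B over KIF18A, came to 2.29-fold. These intervals count single reads and were not computed on read pairs, where they would be wider. That of KLC4 minus KLC1 (0.21, 0.03 to 0.39) ends close to 0, and the pairs with KLC3 rest on its 43 reads. The counts of pairs may therefore be too high. Counting intervals also leave out the variation between library preparations, which 1 library per group cannot show.

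**Figure D4:**
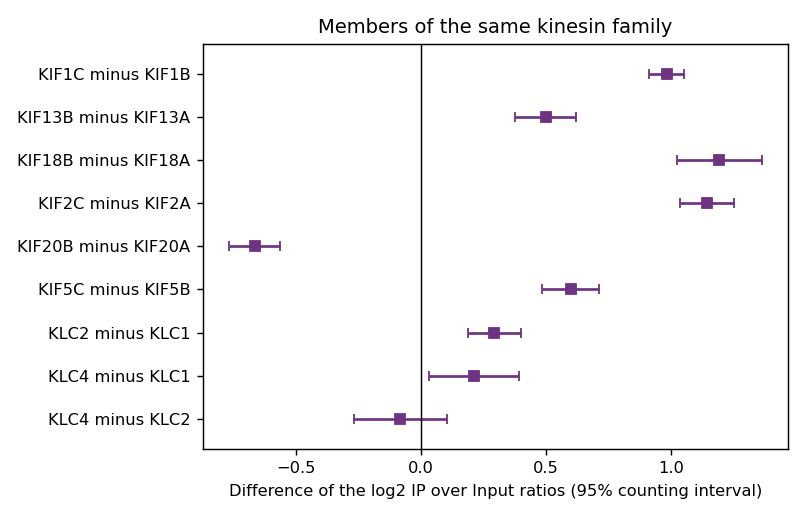
Difference of the log2 ratios (IP over Input) between members of the same kinesin family (x axis), with 95% counting intervals as bars. Shown are the 9 pairs in which both genes had at least 1000 reads, and KIFC genes were not paired. Counted on single reads, all intervals but that of KLC4 minus KLC2 exclude 0, and that of KLC4 minus KLC1 ends close to 0.

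Genes that work with kinesins were described from lists set up by known role, but with earlier results of these data already known. Nothing is therefore read from the shares of these lists that were called. Of 4 kinesin genes and subunits with other names, none was called: CENPE, the kinetochore motor, gave 3047 IP reads against 3390 Input reads, for a ratio of -0.14 (-0.21 to -0.07), KIFBP, a kinesin-binding protein, stood at 0.15 (-0.05 to 0.35), and STARD9, a motor at spindle poles, at 0.51 (0.23 to 0.80). Spindle, midzone and cytokinesis partners had a median of 0.10, and 4 of 17 were called higher (23.5%) and 0 lower. All 17 had at least 1000 reads, where 4.56% of all genes were called higher and 2.71% lower. HMMR, a spindle assembly factor, stood out most, with 19461 IP reads against 4470 Input reads and a ratio of 2.13 (2.09 to 2.18) or 4.39-fold. TPX2, which recruits KIF11 and KIF15 to the spindle, gave 28429 IP reads against 12447 Input reads, for a ratio of 1.20 (1.17 to 1.23), and the kinetochore gene CENPF, with 18557 IP reads against 17513 Input reads, one of 0.10 (0.07 to 0.13). The remaining called genes, NUMA1 at 1.63 (1.58 to 1.69), with 24.9% of exon bases shared, and CIT at 1.05 (0.97 to 1.12), were named after their values were seen, as was RACGAP1 below. CIT encodes citron kinase, the partner of KIF14, whose own ratio was -0.22, and the centralspindlin subunit RACGAP1 stood at -0.02 (-0.13 to 0.08) beside KIF23 at -0.13.

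Cargo adaptors and kinesin regulators had a median of 0.44, and of 18 kept 3 were called higher (16.7%, against 7.41% of all genes) and 0 lower (against 6.96%). KTN1, an anchor for kinesin on membranes of the endoplasmic reticulum, was the deepest with 33675 IP reads against 52080 Input reads and stood at -0.62 (-0.64 to -0.60). TRAK2, which links kinesin to mitochondria, gave 5704 IP reads against 4464 Input reads, for a ratio of 0.37 (0.31 to 0.42). MAP7, which recruits conventional kinesin to microtubules, lay farthest out at 1.86 (0.76 to 3.26) on 30 IP reads against 8 Input reads. The other called adaptors, named after their values were seen, were MAPK8IP1, a scaffold that binds light chains, 2.84-fold higher on 74 IP reads against 26, and RHOT2, a mitochondrial GTPase, at 1.23 on 800 against 344.

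Beside other motor and track genes, the kinesin median (0.29) lay between those of dynein and tubulin genes and far below that of non-muscle myosin II. The 14 kept genes of cytoplasmic dynein and dynactin had a median of 0.03. Of them 1 was called higher (7.14%, against 7.41% of all genes), the motor heavy chain DYNC1H1 at 1.09 (1.05 to 1.13). The tubulin list took names of TUBA, TUBB or TUBG followed by a number, which leaves out the gene named TUBB. Its 15 kept genes, among them TUBA3FP, a pseudogene by its name, had a median of 0.39. TUBB3 (1.08) and TUBB4A (1.52, on 52 IP reads against 18 Input reads) were called higher (13.3%, against 7.41% of all genes). TUBB1 (-1.03, on 41 IP reads against 85 Input reads) was called lower (6.67%, against 6.96%). These 3 were named after their values were seen and share from 15.9% to 35.8% of their exon bases with other genes, and near-identical tubulin copies may share reads. The 3 heavy chains of non-muscle myosin II had ratios of 3.73 to 4.28, above every kinesin. The highest kinesin with at least 1000 reads, KIFC3, stood at 1.17. None of these differences between lists was tested.

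**Figure D5:**
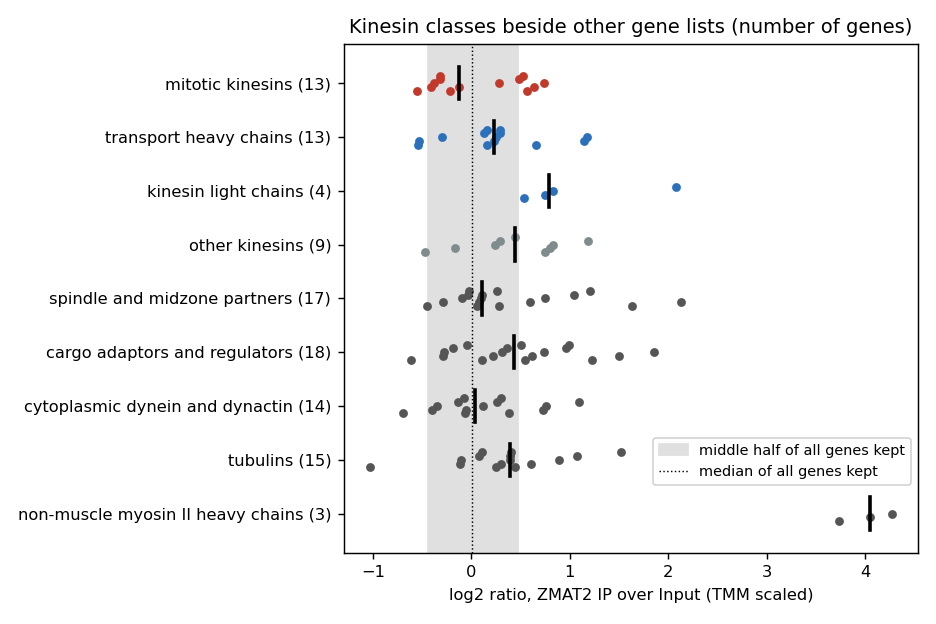
Log2 ratio of the ZMAT2 IP over Input (x axis) for the genes of each list with at least 20 reads, 1 point per gene, with the number of genes in brackets and a bar at the median. The shaded band is the range from the lower to the upper quartile of all genes kept. Kinesin classes lie over and near the band, and the 3 myosin genes lie between 3.73 and 4.28.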

How the data were processed

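RNA of 2 HUH7 libraries was measured, 1 ZMAT2 IP and 1 Input, made with a stranded mRNA kit per the labels' protocols. The authors deposited raw, whole-number counts of reads for each gene, beside its exon positions and length. Per the submitters' processing notes, GRCh38 was the build, and STAR 2.5.3a, fastp 0.23.4 and edgeR 3.12.1 were used. Which tool counted reads, and on which annotation, is not given in the sources used here. Among genes with 1 to 6 reads, 77.9% of IP and 67.1% of Input counts were even, so mates were probably counted singly and intervals on reads are too narrow. The strand setting of the counting is not given either. Where genes share exon bases, on either strand, it is therefore not known to which gene the reads were assigned, if to any.

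From the counts, TMM factors (edgeR 4.0.16, R 4.3.3) came from the 17915 genes whose reads summed to 20 or more. Log2 ratios used a prior count of 0.5. Intervals are exact (Clopper-Pearson, 95%) for the fraction of a gene's reads found in the IP, and those of differences between genes come from the exact conditional odds ratio (SciPy 1.17.1). They cover counting error only: PCR copies are not independent molecules. With 1 library per group no p-value was computed. The calling rule was run on counts simulated with counting error only, with set changes in 200 genes and centring by the median in place of TMM. That simulation held no mates, PCR copies or variation between libraries, so it cannot show how reliable the calls are here. Named genes were all called kinesins, the 3 highest, 3 lowest and 3 deepest of each class, those near the read minimum, and 3 per other list. Other kinesins are given to complete each class. The members, role classes and lists were chosen with earlier results of these data known. Alternatives were library totals, DESeq2 1.42.0 size factors, prior count, read minimum, read pairs, shared exons, class membership and fold threshold.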

Additional observations from a re-analysis of the deposited data

How the results depend on the processing

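The direction of the median of all kinesins (0.29) and of the difference between mitotic and transport medians (-0.41) was kept under each alternative that was run for them. Library totals in place of TMM lowered every log2 ratio by the same amount (-0.11) and gave medians of 0.18 for all kinesins, -0.23 for mitotic and 0.18 for transport kinesins, with 28 of 40 still above 0 and 4 called higher. With a minimum of 1 read KIF4B entered the mitotic class with 4 reads, and its median was 0.095 and the difference -0.21. With KIF2A in the other class these were 0.079 and -0.21. The sign of the mitotic median is thus set by single genes. The number of kinesins called higher (4) was 2 among members sharing under 5% of exon bases, 12 at 1.5-fold, and 3 at a minimum of 100 reads, where KLC3 is no longer included. No kinesin was called lower under any of these settings. Of 22 kinesins named by rule, none lost or gained a call under the scalings, prior count, read minima, read pairs or shared-exon setting in which it was included. With DESeq2 size factors and a prior count of 2 no result left its counting spread. No paired analysis was possible because each group held 1 library. The IgG control was not analysed here, and splicing cannot be read from counts per gene.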

Other observations

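Genes that overlap kinesin exons give a further set of values. BRD8, which shares 3.34% of the exon bases of KIF20A, gave 8263 IP reads against 3160 Input reads, for a log2 ratio of 1.40 (1.34 to 1.46), against 0.28 for KIF20A. CDC23, which shares 1.72% of them, stood at -0.06 (-0.17 to 0.04). TICRR, which shares 11.8% of the exon bases of KIF7, gave 3051 IP reads against 2097 Input reads, for a ratio of 0.55 (0.47 to 0.63), against 0.80 for KIF7. XRCC3, which shares 29.9% of the exon bases of KLC1, gave 630 IP reads against 342 Input reads, for a ratio of 0.89 (0.70 to 1.09), against 0.53 for KLC1. ERCC2, which shares 14.6% of the exon bases of KLC3, gave 444 IP reads against 244 Input reads, for a ratio of 0.87 (0.65 to 1.11), against 2.07 for KLC3. IPO11, which shares 8.97% of the exon bases of KIF2A, stood at -0.65 (-0.80 to -0.51), against -0.41 for KIF2A. RP11-73M18.2, which shares 10.3% of the exon bases of KLC1 on the same strand, gave 4849 IP reads against 3667 Input reads, for a ratio of 0.42 (0.35 to 0.48). These genes were picked among all that overlap a kinesin after their values were seen, and not by the size of the overlap. How many reads each pair shares was not tested.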
